A study of Mus musculus with 2 samples.

Results

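The transcripts of 9 RNA-binding proteins that set the lifetime of cytokine mRNAs were followed in mouse CD4 T cells cultured toward 2 kinds of Th17 cell. The genes are Zc3h12a, Zc3h12d, Rc3h1, Rc3h2, Zfp36, Zfp36l1, Zfp36l2, Elavl1 and Arid5a. They were taken by gene name from the deposited count table, which names 22036 genes. All 9 belong to the 10597 genes kept here, those whose mean over both libraries is at least 1 CPM (counts scaled to a fixed library size). CD4 T cells from wild-type mice, taken from spleen and lymph nodes, were stimulated for 24 h by plate-bound antibodies, 10 μg/mL of anti-CD3 and 5 μg/mL of anti-CD28. The culture called pathogenic (pTh17) received 20 ng/mL of IL-6 together with 20 ng/mL of activin A, a ligand of the TGF-β family. The culture called non-pathogenic (npTh17) received 20 ng/mL of IL-6 together with 2 ng/mL of recombinant TGFβ1. Antibodies to IFNγ and IL-4 were in both, each at 10 mg/mL as the labels state. The labels name no deleted or introduced gene in either culture, and give neither strain nor age.

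Each culture gave 1 library, with 30877656 counts on named genes for pTh17 and 33470161 for npTh17. No difference below has a replicate check, no test between the conditions was possible, and no p-value is given. A value after "95% interval" covers counting error only, because each culture gave 1 library. The labels name no molecular identifiers, so PCR copies can count more than once and the intervals can be too narrow. All 6 T cell markers that were found had counts, with a summed level of 1480 CPM in pTh17 and 1608 CPM in npTh17. They did not move together: of the T cell receptor complex chains, Cd3e was lower in pTh17, at 167 CPM against 252 CPM, and Cd3d higher, at 107 CPM against 88.9 CPM. The 6 Th17 markers summed to 769 CPM and 1091 CPM, and they too were mixed. Il17f was lower in pTh17, at 394 CPM against 587 CPM, whereas Il23r stood at 12.8 CPM against 3.44 CPM and Il17a at 7.86 CPM against 6.19 CPM. Markers of B cells summed to 0.808 CPM in pTh17 and 0.180 CPM in npTh17, with Pax5 at 0 in both, and those of myeloid cells to 0.226 CPM and 1.5 CPM, with Csf1r, Cd14 and Adgre1 at 0 in both. Itgam and Itgax had counts in npTh17 alone, 24 and 20 against 0 in pTh17. CD8 T cell markers summed to 1.91 CPM in pTh17 and 1.89 CPM in npTh17. Erythroid markers summed to 1.75 CPM and 2.33 CPM, and NK cell markers to 0.226 CPM and 0.180 CPM. The part of these other cell types in the results was not tested. In bulk RNA, fewer cells of a type and less RNA per cell cannot be told apart.

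Many cytokine mRNAs carry short elements in the untranslated region after the stop codon (the 3′ UTR) that shorten their life. Proteins of the Zfp36 family bind AU-rich stretches there and bring in the CCR4-NOT complex, which removes the poly(A) tail. The roquins Rc3h1 and Rc3h2 bind small stem-loops and also recruit that complex, whereas the regnase Zc3h12a is an endonuclease that cuts mRNAs at such stem-loops. Elavl1, also called HuR, binds AU-rich and U-rich stretches and is known mainly for stabilising its mRNAs, and Arid5a is known to shield stem-loop mRNAs such as Il6 from regnase. In activated T cells the protease Malt1 cleaves regnase and roquin proteins, so the mRNA level is not the only layer at which they are controlled.

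The AU-rich nonamer TTATTTATT, a core site of the Zfp36 family, was searched on the transcript strand of the longest annotated 3′ UTR of each gene, counting overlapping copies (GENCODE M21, mm10). It was found in the 3′ UTRs of 6 of the 9 regulators themselves, and in 8.30% of the 10487 kept genes with an annotated 3′ UTR. Long 3′ UTRs hold it more often, as it was in 20.0% of those of 5000 to 7500 bases, 11.7% of those of 1800 to 1900 and 4.85% of those of 700 to 900. The regulators' sites are shown because they place the regulators among the genes that carry the element. Capitals mark the nonamer in 25 bases, and all lie in a 3′ UTR.

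Zfp36, chr7:28376953-28376977, minus strand: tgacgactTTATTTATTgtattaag
Zfp36l1, chr12:80108169-80108193, minus strand: ctgttggaTTATTTATTttagaaat
Zfp36l2, chr17:84184916-84184940, minus strand: tatttaacTTATTTATTatcttgtg
Rc3h1, chr1:160970045-160970069, plus strand: tttactcaTTATTTATTgagatgag
Rc3h2, chr2:37373289-37373313, minus strand: aagacattTTATTTATTttactctg
Elavl1, chr8:4285790-4285814, minus strand: catgaaaaTTATTTATTtatttatt

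The first 5 of these genes hold 1 copy each. Elavl1 holds 8 overlapping or neighbouring copies, a number reached by 6 of the 10487 genes. The nonamer was not found in the 3′ UTRs of Zc3h12a, Zc3h12d or Arid5a.

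The second element searched was a stem-loop of a 5-base perfectly paired stem around a 3-base loop of pyrimidine, purine and pyrimidine, the general shape that roquins and regnase bind. A match was present in 24.4% of the 10487 genes, and in 62.4% of those with 3′ UTRs of 5000 to 7500 bases. It was found in 3 regulators, with 4 matches in Rc3h1, 2 in Rc3h2 and 3 in Zc3h12a. Below, capitals mark the loop. Both roquin genes hold the same stem and loop, and the known decay element of Tnf and a match in Nfkbid, a gene for an NF-κB cofactor, have the same loop letters.

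Rc3h1, chr1:160971655-160971679, plus strand: ccaataacttcTGTgaagttgcctt
Rc3h2, chr2:37373804-37373828, minus strand: taattaacttcTGTgaagttgttta
Zc3h12a, chr4:125119064-125119088, minus strand: ctgttgatacaCATtgtatctctgt
Tnf, chr17:35199580-35199604, minus strand: gacatgttttcTGTgaaaacggagc
Nfkbid, chr7:30428397-30428421, plus strand: taggtgatttcTGTgaaatcgagcc

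A match of letters is a description and does not show that a protein binds there.

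The 9 regulators were all expressed, and their levels were close between the libraries. Per transcript length, in the deposited FPKM, Zfp36l1 was the most abundant in both libraries, at 62.7 FPKM in pTh17 and 55.3 FPKM in npTh17. It stood above 88.4% of the kept genes in npTh17. Zfp36l2, Zc3h12d, Elavl1 and Arid5a followed, and Zfp36 came after them. Rc3h1, Rc3h2 and Zc3h12a were the least abundant, at 14.3 FPKM or less. The order was the same in both libraries except that the last places were held by Rc3h2 in pTh17 and by Zc3h12a in npTh17. When the counting error of each gene was carried to its FPKM, neighbours in the order overlapped for Zfp36l2 and Zc3h12d in both libraries. They also overlapped for Zc3h12d with Elavl1 and for Zc3h12a with Rc3h2 in pTh17.

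**Figure D1:**
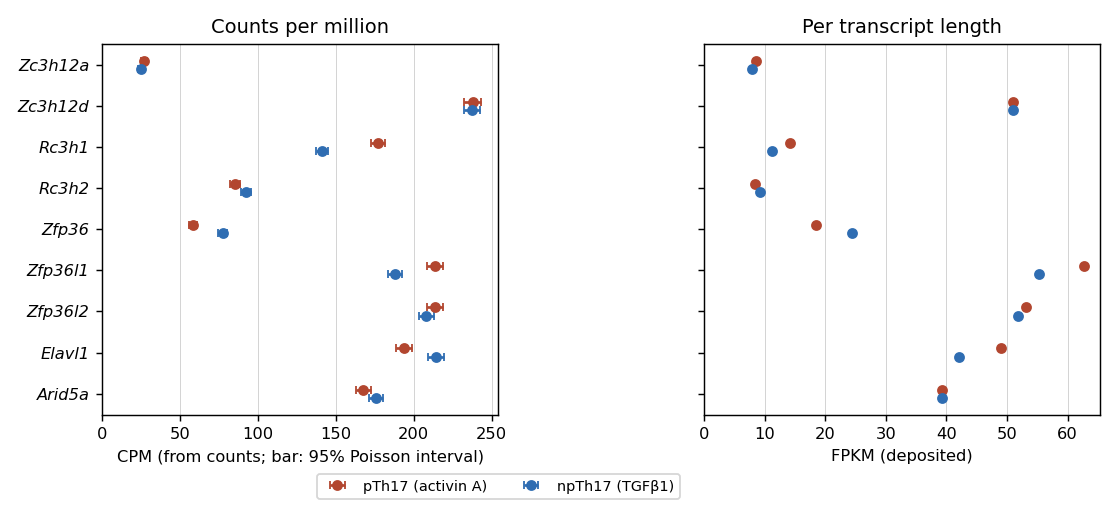
Levels of the 9 regulators in the pTh17 (red) and npTh17 (blue) libraries, as CPM with 95% Poisson intervals on the left and as deposited FPKM on the right. Zfp36 and Rc3h1 are the pairs of points furthest apart relative to their level, and Elavl1 changes sides between the panels.

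None of the 9 regulators differed by 2-fold between the libraries. Of the 10597 genes 4.20% did, 2.25% with the higher level in pTh17 and 1.95% in npTh17. None differed by 1.5-fold, against a background of 13.0% of genes, 7.20% higher in pTh17 and 5.76% in npTh17. At such shares 0 of 9 genes is not unusual. The background also holds genes down to 1 CPM, while the lowest mean of a regulator was 26.0 CPM (Zc3h12a), and no share at matched levels was computed. At 1.25-fold, a limit chosen after the values were seen, 1 regulator was higher in pTh17 (Rc3h1) and 1 in npTh17 (Zfp36), against 16.5% and 15.2% of all genes, or 31.7% in either direction. With the trend on transcript length and GC content removed, Rc3h1 was below that limit, at a log2 ratio of 0.29 in place of 0.33, and 0 regulators passed it in pTh17. The median log2 ratio of pTh17 over npTh17 was 0.0029 over the 9 regulators and −0.0045 over all kept genes. The log2 ratios of the regulators ran from −0.41 to 0.33, inside the range of −0.63 to 0.70 that holds the central 90% of genes. For 6 regulators the 95% interval left out a ratio of 1, as it did for 66.9% of all genes at this depth. With intervals from halved counts, tried after seeing the data, 5 regulators did so, against 55.1% of all genes.

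**Figure D2:**
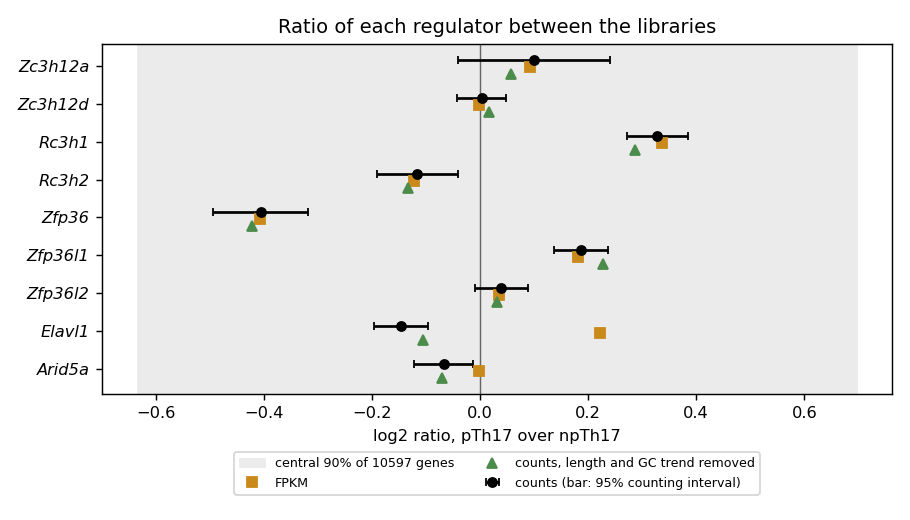
Log2 ratio of each regulator, pTh17 over npTh17, by counts with 95% counting intervals (black), by FPKM (orange) and by counts with a trend on transcript length and GC content removed (green). The grey band is the central 90% of 10597 genes. All points lie inside it, Zfp36 is lowest and Rc3h1 highest, and Elavl1 is below 0 by counts and above 0 by FPKM.

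Among the AU-rich element binders, Zfp36, which encodes tristetraprolin, had the ratio furthest from 1 of the 9. Zfp36 (ENSMUSG00000044786, chr7:28376784-28380253, minus strand) had 1807 counts in pTh17 and 2587 in npTh17, or 58.4 CPM (95% interval 55.8 to 61.2) and 77.4 CPM (74.5 to 80.5). It was thus higher in the TGFβ1 culture, by 1.32-fold (95% interval 1.25 to 1.41). Of all kept genes, 10.9% had a lower ratio of pTh17 over npTh17. The FPKM gave 18.4 in pTh17 and 24.5 in npTh17, a 1.33-fold difference in the same direction.

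Its relatives did not share that direction. Zfp36l1 (ENSMUSG00000021127, chr12:80107754-80113013, minus strand) had 6614 counts in pTh17 and 6281 in npTh17, or 214 CPM and 188 CPM. It was 1.14-fold higher in pTh17 (95% interval 1.10 to 1.18). Zfp36l2 (ENSMUSG00000045817, chr17:84183931-84187947, minus strand) also had 6614 counts in pTh17, with 6954 in npTh17, or 214 CPM and 208 CPM. Its ratio of 1.03 had an interval that held 1 (0.994 to 1.06). Zfp36l1 and Zfp36l2, like Zfp36, encode zinc finger proteins that promote deadenylation, and both are known to keep developing lymphocytes quiescent.

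The mix within the family therefore differed between the libraries while its sum hardly did. Zfp36l1 stood at 3.40 times the FPKM of Zfp36 in pTh17 and 2.26 times in npTh17. By counts the shift in that ratio was 0.59 on the log2 scale (95% interval 0.49 to 0.69). For Zfp36l2 over Zfp36 the shift was 0.45 (0.35 to 0.54). The 3 genes together summed to 486 CPM in pTh17 and 473 CPM in npTh17, a log2 ratio of 0.038 (0.0061 to 0.071). Annotated RNA genes on the opposite strand overlap all 3, by 1274 bases at Zfp36, 4967 at Zfp36l1 and 2192 at Zfp36l2. The count table has no row for them, and since the labels describe no strand-marking step, their reads cannot be told apart from those of the Zfp36 family.

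The roquin pair also split. Rc3h1 (ENSMUSG00000040423, chr1:160906418-160974978, plus strand), which encodes roquin-1, had 5478 counts in pTh17 and 4715 in npTh17, or 177 CPM (95% interval 172 to 182) and 141 CPM (137 to 145). It was 1.26-fold higher in pTh17 (1.21 to 1.31), and 16.2% of kept genes had a higher ratio. Rc3h2 (ENSMUSG00000075376, chr2:37370069-37422903, minus strand), which encodes roquin-2, had 2632 and 3082 counts, or 85.1 CPM and 92.2 CPM. It was 1.08-fold higher in npTh17 (1.03 to 1.14).

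Roquin-1 and roquin-2 are closely related proteins with overlapping roles in restraining T follicular helper cells and costimulatory receptors. Rc3h1 was at 1.69 times the FPKM of Rc3h2 in pTh17 and at 1.23 times in npTh17. The shift by counts was 0.44 on the log2 scale (95% interval 0.35 to 0.54). Together they summed to 262 CPM in pTh17 and 233 CPM in npTh17, a log2 ratio of 0.17 (0.12 to 0.21). Rc3h1 is overlapped on its own strand by 3 provisional gene models with no row in the table.

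The regnase genes were level between the libraries. Zc3h12a (ENSMUSG00000042677, chr4:125118423-125127840, minus strand), which encodes regnase-1, had 831 counts in pTh17 and 838 in npTh17, or 26.9 CPM (95% interval 25.1 to 28.8) and 25.1 CPM (23.4 to 26.8). The intervals overlapped, and the ratio of 1.07 had an interval from 0.972 to 1.18. Zc3h12d (ENSMUSG00000039981, chr10:7832470-7870396, plus strand), a relative first described as a candidate tumour suppressor in lymphoma, had 7359 and 7937 counts, or 238 CPM and 237 CPM. Its ratio of 1.00 had an interval from 0.971 to 1.03, so at this depth a difference of 1.25-fold lies outside the counting error of both regnase genes.

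Zc3h12d was the more abundant regnase by far. It stood at 5.97 times the FPKM of Zc3h12a in pTh17 and at 6.38 times in npTh17, and the shift between libraries had an interval that held 0 (−0.24 to 0.049). Of the other members of that family, Zc3h12b and Zc3h12c were rare, at 5.21 and 6.53 CPM in pTh17 and 3.32 and 4.64 CPM in npTh17. Both were higher in pTh17, Zc3h12b by 1.56-fold (95% interval 1.22 to 2.01) and Zc3h12c by 1.41-fold (1.14 to 1.75). N4bp1, which encodes a related nuclease that is also cleaved by Malt1, went the other way, at 92.2 CPM in pTh17 and 153 CPM in npTh17, or 1.66-fold higher in npTh17 (1.58 to 1.74). N4bp1 thus lay further from a ratio of 1 than any of the 9 regulators.

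Of the proteins known to protect mRNAs, Arid5a was nearly level. Arid5a (ENSMUSG00000037447, chr1:36307733-36324029, plus strand) had 5188 counts in pTh17 and 5874 in npTh17, or 168 CPM and 176 CPM. By counts it was 1.05-fold higher in npTh17 (95% interval 1.01 to 1.09), and by FPKM it stood at 39.2 and 39.3. Its relative Arid5b had 103 CPM and 101 CPM, with a log2 ratio of 0.025 (−0.046 to 0.095). Arid5a mRNA was thus measured at a level well above that of Zc3h12a, the nuclease it is known to oppose, with 39.2 against 8.54 FPKM in pTh17.

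Elavl1 gave opposite directions in the deposited tables. Elavl1 (ENSMUSG00000040028, chr8:4285382-4325413, minus strand) had 5992 counts in pTh17 and 7166 in npTh17, or 194 CPM (95% interval 189 to 199) and 214 CPM (209 to 219). By counts it was 1.11-fold higher in npTh17 (1.07 to 1.15). By FPKM it was 49.0 in pTh17 and 42.0 in npTh17, or 1.17-fold higher in pTh17. The direction of Elavl1 thus depends on the unit. The protein-coding gene Ccl25, which has its own row, overlaps Elavl1 by 204 bases on the opposite strand. Since the labels describe no strand-marking step, reads from that stretch cannot be told apart.

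Counts and FPKM differ by the transcript length that the authors' program assigned, so dividing counts by FPKM and by the total count gives an implied length. For Elavl1 it was 3859 bases in pTh17 and 4950 bases in npTh17, a log2 ratio of −0.36. Of 10593 genes with such a ratio, 0.793% were at or below that of Elavl1, the median was 0.015, and the central 95% lay between −0.17 and 0.15. For 7 of the other regulators it was between −0.00085 and 0.018, and for Arid5a it was −0.056. Among 217 genes with 1 annotated transcript and a mean of at least 50 CPM, the implied length was 1.11 times the annotated one in pTh17 and 1.10 times in npTh17.

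**Figure D3:**
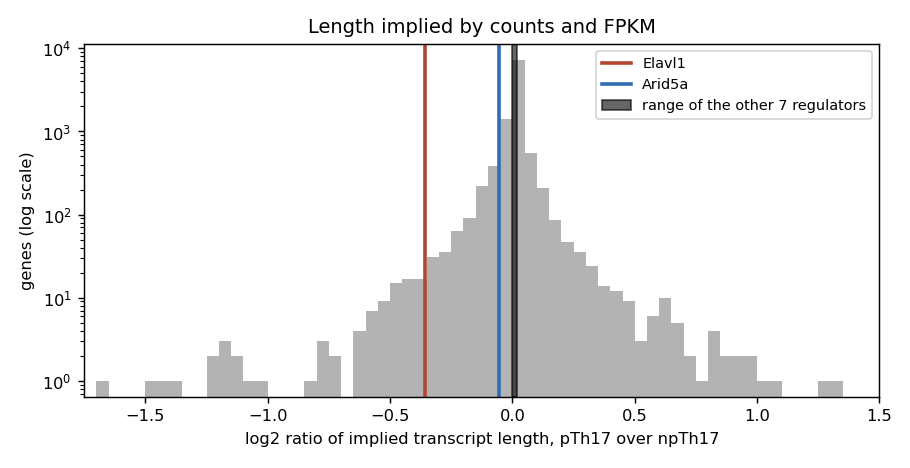
Distribution over genes of the log2 ratio, pTh17 over npTh17, of the transcript length implied by counts and FPKM (number of genes on a log axis). Elavl1, at −0.36 (red line), lies in the left tail, Arid5a (blue) is at −0.056, and the other 7 regulators fall in the narrow dark band.

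Elavl1 has 2 annotated protein-coding transcripts, of 5743 and 2317 bases, whose 3′ UTRs differ in length. The longer 3′ UTR has 4218 bases and the shorter has 1257. The 8 AU-rich nonamers lie between bases 3794 and 3848 of the longer 3′ UTR. If both start after the same stop codon, which was not compared, the shorter one holds none of them. The shorter one was not searched by itself. Another 2 annotated transcripts, of 4808 and 613 bases, retain an intron. The implied lengths, 3859 bases in pTh17 and 4950 bases in npTh17, lay between the lengths of the 2 protein-coding transcripts. Among genes with 1 annotated transcript, implied lengths were 1.11 and 1.10 times the annotated ones. How near the 4808-base transcript lies to the npTh17 value can therefore not be read directly. The deposited tables give no value per transcript, so the share of each was not measured. No relative of Elavl1 was detected at more than a few counts, with Elavl2 and Elavl4 at 0 in both libraries and Elavl3 at 5 counts in pTh17 and 0 in npTh17.

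The machinery that the regulators recruit was described with lists of its genes. Deadenylation genes, which include the CCR4-NOT subunits, had a median log2 ratio of −0.14, with 14 of 19 below a ratio of 1, against 5357 of all 10597 kept genes. Of the 19, 3 were past 1.25-fold in that direction, close to the background of 15.2%. Cnot6, a catalytic deadenylase subunit, was 1.31-fold higher in npTh17 (95% interval 1.27 to 1.34), at 426 CPM against 326 CPM. Cnot4 and the deadenylation adaptor Tob1 were each 1.30-fold higher there. Cnot1, the scaffold of the complex, was level at 485 CPM in pTh17 and 475 CPM in npTh17.

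Decapping and 5′ to 3′ decay genes had a median log2 ratio of 0.13, with 11 of 17 above a ratio of 1, against 5240 of all 10597 kept genes. That median was 0.034 with the length and GC trend removed. Lsm7 and Lsm5, subunits of the ring that binds deadenylated ends, were 1.88-fold (95% interval 1.75 to 2.03) and 1.6-fold (1.39 to 1.85) higher in pTh17, and Dcp2, the decapping enzyme, was 1.37-fold higher (1.32 to 1.43). For exosome and 3′ to 5′ decay genes the median over 16 genes was 0.020, and the gene furthest from 1 was Dis3l, a nuclease, 1.45-fold higher in npTh17 (1.33 to 1.59).

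Nonsense-mediated decay genes, which include Upf1, the helicase used by regnase-1, had a median of 0.0045 over 12 genes, with none past 1.25-fold. Smg1, its kinase, was 1.20-fold higher in pTh17 (95% interval 1.17 to 1.23). Other RNA-binding proteins with roles in mRNA stability had a median of −0.020 over 11 genes. Celf1 was 1.27-fold higher in pTh17 (1.23 to 1.30), and Tia1 and Tial1, which are linked to translational silencing, were 1.26-fold (1.19 to 1.34) and 1.25-fold (1.21 to 1.29) higher in npTh17. No gene of these 5 lists passed 2-fold.

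**Figure D4:**
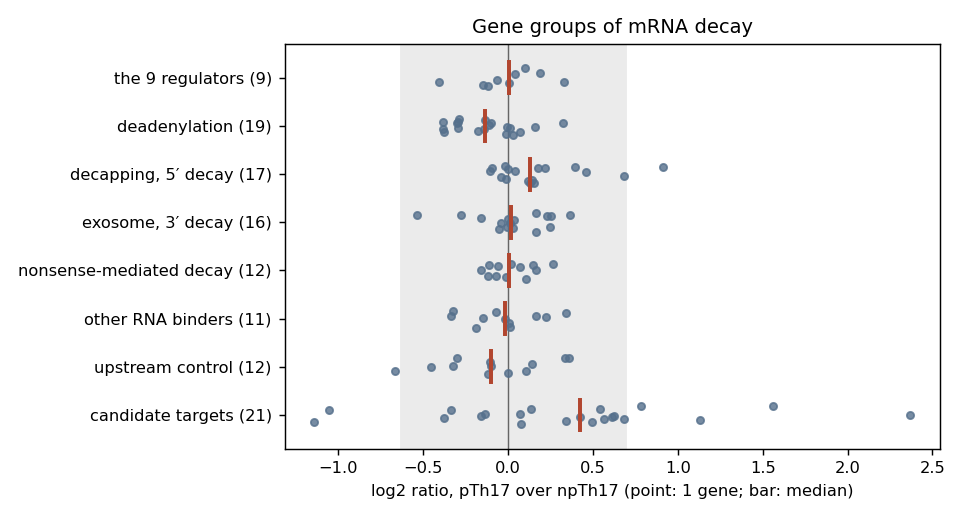
Log2 ratio, pTh17 over npTh17, of each gene (points) with the median (red bar) for the 9 regulators and 7 lists of related genes, with the number of genes in parentheses. The grey band is the central 90% of all kept genes. The candidate targets have the median furthest from 0 among the lists as plotted, at 0.42, and 0.13 with no filter on low genes.

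Genes that control the regulators from upstream had a median log2 ratio of −0.10 over 12 genes. Of the 12, 8 were below a ratio of 1, against 5357 of all 10597 kept genes. With the length and GC trend removed the median was −0.018. The kinase gene Ikbke was 1.37-fold higher in npTh17 (95% interval 1.27 to 1.49), while Bcl10, the partner of Malt1, was 1.28-fold higher in pTh17 (1.20 to 1.38). Malt1 and the roquin cofactor Nufip2 were named after their values were seen. Malt1, the protease that cleaves regnase-1 and roquins, was abundant and 1.23-fold higher in npTh17 (1.22 to 1.25), at 1538 CPM against 1248 CPM. Nufip2 was 1.26-fold higher in pTh17 (1.20 to 1.32).

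Candidate targets of the regulators were listed from general knowledge, with several of their values already known, so their direction is not independent evidence. Of 27 listed genes 21 had a mean of at least 1 CPM. Their median log2 ratio was 0.42, and 15 of the 21 were higher in pTh17, against 5240 of all 10597 kept genes. Over all 27, with no filter on low genes, the median was 0.13. At 1.25-fold 12 were higher in pTh17 and 4 in npTh17, against 16.5% and 15.2% of all genes. At 2-fold the numbers were 3 and 2, against 2.25% and 1.95%. One of those 2, Gata3, named after its values were seen, had 20 counts in pTh17 and 46 in npTh17 and passed the filter only through npTh17. Il2, the T cell growth factor, was 5.16-fold higher in pTh17 (95% interval 4.46 to 6.05), at 31.9 CPM against 6.16 CPM. The costimulatory receptor gene Tnfrsf9 was 2.95-fold higher (2.59 to 3.38). Nfkbid and Rel, which act in NF-κB signalling, were 1.72-fold (1.64 to 1.80) and 1.54-fold (1.47 to 1.61) higher. Tbx21, which encodes T-bet, was 1.61-fold higher (1.37 to 1.89). Il10 was 2.21-fold higher in npTh17 (1.83 to 2.69). The other 6, among them Il6, Ifng and Csf2, were too low to compare. Il6, the classic cytokine target of regnase-1 and Arid5a, had 0 counts in both libraries, which allows up to 3 counts in each.

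The targets were then split by the stem-loop search, a split added after the data were seen. Since several values were known when the targets were listed, the split is a description and not independent evidence. All 10 of the 21 targets that had a match in the 3′ UTR were higher in pTh17, as were 1241 of the 2556 kept genes with a match. The log2 ratios of the 10 targets ran from 0.072 (Ets1) to 1.13 (Ier3), with a median of 0.56. The other 8 were Nfkbid, Rel, Nfkbiz, Tnfrsf4, Icos, Tnf, Ctla4 and Irf4, most of them genes of NF-κB signalling or costimulation. Icos, which roquins are known to repress, stood at 146 CPM in pTh17 and 100.3 CPM in npTh17. Tnf, the source of the stem-loop printed above, was at 64.4 CPM and 45.7 CPM. Of the 11 targets without a match 5 were higher in pTh17, against 5181 of the 10487 kept genes with a 3′ UTR. That background includes the 2556 genes with a match. The median of these 11 was −0.14, with a range from −1.14 (Il10) to 2.37 (Il2), the highest ratio of the 21. The median 3′ UTR was 1235 bases in the first set and 936 in the second. With the length and GC trend removed the medians were 0.59 and −0.044. Split by the AU-rich nonamer instead, the 4 of the 21 targets that hold it had a median of 0.56. Of these 4, 3 were higher in pTh17, against 415 of the 870 kept genes with a nonamer.

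**Figure D5:**
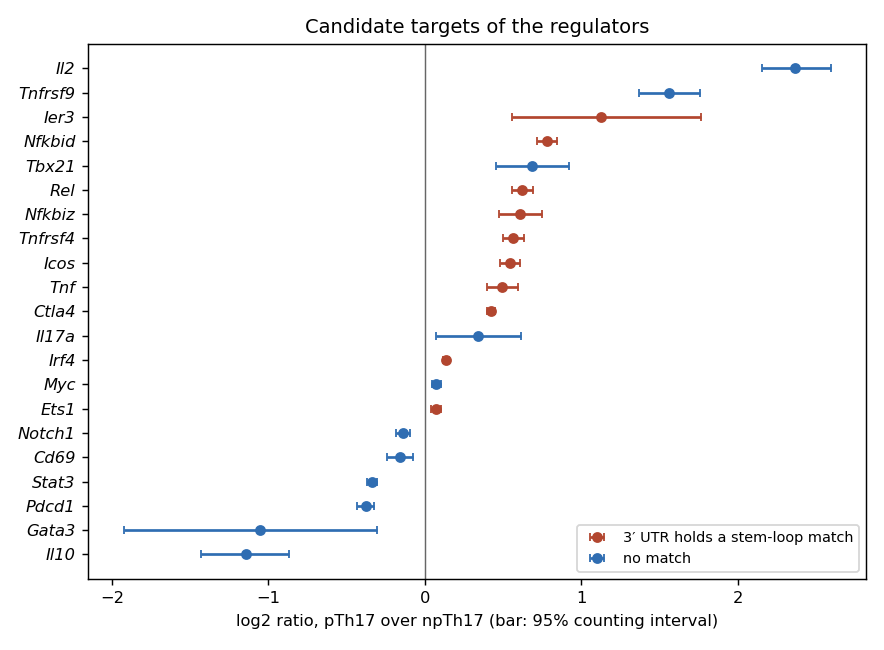
Log2 ratio, pTh17 over npTh17, of the 21 candidate targets with a mean of at least 1 CPM with 95% counting intervals, red where the 3′ UTR holds a stem-loop match and blue where it does not. All 10 red points lie above 0, between 0.072 and 1.13, and the blue points run from −1.14 to 2.37. The targets were listed with several values known, and the split was added after the data were seen.

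Over all genes, the ratios of those carrying either element had a median close to 0. The 2556 kept genes with a stem-loop match had a median log2 ratio of −0.011, and 38 were at least 2-fold higher in pTh17 and 39 in npTh17. The 870 genes with at least 1 AU-rich nonamer, the site of the Zfp36 family, had a median of −0.012, with 1.72% at least 2-fold higher in pTh17 and 2.18% in npTh17. Over all 10487 genes with a 3′ UTR those shares were 2.11% and 1.92%, and the median was −0.0050. With at least 2 nonamers, 197 genes had a median of −0.0045. The medians over all genes that carry either element were thus close to that of all genes.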

How the data were processed

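The authors deposited whole-number counts per gene and FPKM values, 1 column per library, per the file headers. FPKM relates fragments to transcript length and depth, and was deposited by the authors without the name of the program. Polyadenylated RNA was fragmented and copied from random primers, per the labels' protocols. Reads were placed on mm10, per the submitters' processing notes. Aligner, counter and annotation: not given in the sources used here.

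Of 23702 rows, 20 hold no values. Another 1646 lack a gene identifier, held 2.50% of the pTh17 and 2.90% of the npTh17 counts, and were left out. Of 22036 identifiers, 22022 were found in GENCODE M21, the source of positions and 3′ UTRs.

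Library sizes were scaled with TMM in edgeR 4.0.16 (R 4.3.3), with factors of 1.00 after rounding. Ratios used CPM with a prior count of 1. Their 95% intervals are exact Clopper-Pearson intervals of the share of counts in pTh17, and CPM have exact Poisson intervals. Counts of 2 were 3.42 and 4.37 times as frequent as counts of 1 in pTh17 and npTh17, so a fragment may add more than 1 and intervals can be too narrow. In simulated counts over 10602 genes for this comparison, 95.1% of intervals held the planted ratio. The simulated counts were independent Poisson draws, without the excess of counts of 2 over counts of 1. The simulation thus checks the computation only, and not whether the intervals are wide enough for these libraries.

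The members, lists and rules were chosen with earlier results of these data known. Named beside the 9 regulators were, per list, up to 3 genes (6 for targets) with a mean of at least 5 CPM and the largest ratios, and all close relatives. Cnot1, Malt1, Nufip2, Gata3, Il6, Icos and Tnf were given with values outside this rule. Ets1 and Ier3 were given as the ends of a range. With 2 libraries, likeness of pattern is only likeness of ratio, so no genes of like pattern were sought. Alternatives were DESeq2 size factors (version 1.42.0), total counts, a prior count of 5, FPKM with a pseudocount of 0.1, a removed trend on transcript length and GC content, and other filters. Some genes these rules select are not reported here.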

Additional observations from a re-analysis of the deposited data

How the results depend on the processing

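With 1 library per condition no library could be left out, and culture or library variation was not measured. No paired analysis was possible because each condition has 1 library. Of the 9 regulators, Elavl1 reversed, to a log2 ratio of 0.22 by FPKM, and Arid5a moved to −0.00099 by FPKM. The other regulators stayed within their counting intervals under DESeq2 size factors, total counts, a prior count of 5, FPKM and the removed length and GC trend. With that trend removed, 0 regulators were 1.25-fold higher in pTh17 in place of 1. The median of the candidate targets was 0.13 with no filter on low genes in place of 0.42, as 6 targets with few or no counts then enter it. With intervals computed from halved counts, a choice made after seeing the data, that of Arid5a held a ratio of 1 and those of the other 5 regulators away from 1 did not, and 55.1% of all genes were away from 1.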
